A study of Mus musculus with 3 samples.

Results

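The AP-1 immediate early genes described here are Fos, Fosb, Jun, Junb, Jund, Atf3 and Ier2, chosen by their symbols. They are 7 of the 33243 genes listed in any of 3 single-cell libraries of mouse thymocytes, and all 7 are among the 27734 genes listed in every library. Their counts were read in cells with 500 to 5000 detected genes and at most 7% mitochondrial counts, which were 21879 of the 23283 cells deposited. Each library was made from the thymi of 4 C57BL/6 mice that were pooled before sorting. The age label reads week 6 in every library, and the protocol gives animals of 6 to 8 weeks. Cells with CD4 or CD8 were depleted on magnetic beads, and the sorts left out cells with CD4, CD8, B220, CD11b, CD11c, NK1.1 or TCRβ. The first run held total CD4-CD8- double-negative (DN) thymocytes with TCRγδ+ thymocytes, the second DN1 and DN2 cells that were TCRγδ-, and the third a mix of separately sorted DN1 with DN2, DN3 and TCRγδ+ cells. Each sort was made once, no mouse was treated, and the pool, the sort, the reagent kit and the day of a run cannot be told apart.

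AP-1 is a transcription factor made of a pair of proteins that grip DNA through a basic region and a leucine zipper. Fos proteins pair only with partners such as the Jun proteins, while Jun proteins can also pair with each other, and Atf3 is a stress-induced member of the related ATF and CREB family. Fos, Fosb, Jun, Junb, Atf3 and Ier2 are immediate early genes: they are transcribed within minutes of a signal, from factors that are already in the cell, and their RNA is short-lived. Jund is the Jun member that resting cells usually keep on. In T cells these genes answer antigen receptor and MAP kinase signals, and in tissues that are taken apart at warm temperatures they also answer the handling itself.

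In the GRCm38 genome, which is the mm10 build that the counts use, Fos lies on the plus strand of chromosome 12 at 85473890-85477273 and Fosb on the minus strand of chromosome 7 at 19302696-19310051. Jun is on the minus strand of chromosome 4 at 95049034-95052222 and Atf3 on the minus strand of chromosome 1 at 191170296-191218039. Chromosome 8 carries 3 of the members, with Jund on the plus strand at 70698949-70700616, Ier2 on the minus strand at 84661331-84662852 and Junb on the minus strand at 84974484-84978718. In the GENCODE M21 annotation Fos, Fosb and Atf3 each have 4 exons, and Jun, Junb, Jund and Ier2 each have 1. The 3′ libraries count transcripts by their ends, so that the values below say nothing on isoforms such as the short form of Fosb.

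The promoters of Fos, Fosb, Jun and Junb are shown because these were the 4 members at least 4-fold higher in the DN2 gate of both later runs than in that of the first, as described below. They are the 250 bases before the transcription start, written 5′ to 3′ on the strand of the gene, from RefSeq on GRCm38.p6. The capitals mark TGACG, the core of the cyclic AMP response element that CREB and ATF proteins bind.
Fos, plus strand, chr12:85473640-85473889: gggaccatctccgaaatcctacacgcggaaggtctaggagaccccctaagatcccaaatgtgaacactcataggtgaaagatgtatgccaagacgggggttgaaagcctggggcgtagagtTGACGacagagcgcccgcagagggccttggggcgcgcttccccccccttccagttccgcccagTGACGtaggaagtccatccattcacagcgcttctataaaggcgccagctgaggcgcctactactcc
Fosb, minus strand, chr7:19310046-19310295: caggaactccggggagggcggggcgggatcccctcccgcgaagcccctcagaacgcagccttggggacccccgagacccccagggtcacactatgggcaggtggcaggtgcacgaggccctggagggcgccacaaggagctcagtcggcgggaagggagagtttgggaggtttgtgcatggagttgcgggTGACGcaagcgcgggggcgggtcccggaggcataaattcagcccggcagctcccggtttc
Jun, minus strand, chr4:95052223-95052472: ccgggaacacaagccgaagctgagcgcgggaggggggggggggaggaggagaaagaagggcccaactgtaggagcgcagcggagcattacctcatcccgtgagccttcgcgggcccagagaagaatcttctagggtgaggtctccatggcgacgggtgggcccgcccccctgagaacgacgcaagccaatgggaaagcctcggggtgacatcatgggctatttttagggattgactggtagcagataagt
Junb, minus strand, chr8:84978749-84978998: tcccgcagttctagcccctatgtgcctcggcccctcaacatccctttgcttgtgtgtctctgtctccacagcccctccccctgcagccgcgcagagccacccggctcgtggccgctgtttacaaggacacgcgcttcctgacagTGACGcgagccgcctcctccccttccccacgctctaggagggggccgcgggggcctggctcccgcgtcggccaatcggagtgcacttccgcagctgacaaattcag

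Both strands were searched from 250 bases before to 50 bases after the start. TGACG was found at 2 places in Fos, starting at -129 and -66, at -60 in Fosb and at -106 in Junb, and its complement was found at -7 in Atf3, while Jun held none. Of 32851 promoters of this length, 20.8% held TGACG. The full element TGACGTCA, which contains TGACG and is held by 1.79% of promoters, the AP-1 site TGACTCA or TGAGTCA, held by 5.20%, and the CArG box that serum response factor binds, held by 1.63%, were in none of these 5 windows. The heat shock element GAANNTTC, held by 7.86% of promoters, was found in Jun alone of the 5, at -128. These are matches of letters and no measure of binding. Sites farther from the start, and spellings that differ from these patterns, were not searched. RefSeq promoters were matched for 6 of the 7 members, and the entry for Jund starts from another start than the gene model above and was not compared. The Atf3 window, chr1:191183284-191183583, also belongs to another start, which lies inside the gene model above. The place at -7 is counted from that start. The windows of Fosb and Junb are counted from starts slightly off the edge of the gene model, unlike those of Fos and Jun. The shown Junb sequence stops at 84978749, outside the model's edge at 84978718. The shown Fosb sequence stops at 19310046, inside the edge at 19310051.

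The deposited counts are unique molecular identifiers (UMIs), each standing for 1 captured transcript. The first run held 39947415 of them, the second 52797915 and the third 98533329. The kept cells had a median of 5989.5, 4844 and 8507 UMIs and 2.84%, 3.19% and 3.10% mitochondrial counts. Barcodes shared between runs numbered 72 for the first with the second, 3 for the first with the third and 0 for the second with the third. Levels are given as CPM (UMIs of a gene, scaled so that all genes of the summed cells add up to 1e+06), with exact Poisson 95% intervals that cover counting error only. The pools also differed in sex: Xist was at 1453 and 1696 CPM in the first and the third run and at 0.0570 in the second, while Ddx3y was at 64.9 CPM in the second and had no UMI in the others. These genes were picked after their values were seen, and the part of sex in the differences between runs was not tested.

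Cells were put into exclusive gates by their UMIs, after cells with B cell, myeloid or erythroid genes had been set aside. The DN3 gate took cells with at least 1 UMI of Il2ra, which encodes CD25, and at least 2 of Ptcra, the pre-T cell receptor chain, and the DN2 gate took cells with at least 2 of Il2ra and 0 of Ptcra. The remaining gates had 0 UMIs of Il2ra. The DN4 gate took cells with at least 2 UMIs of Ptcra and Cd8b1 together, the progenitor gate those with at least 2 of Kit, Flt3 and Cd34 together, the Trdc gate those with at least 5 of the γδ receptor constant chain Trdc, and the Trac gate those with at least 3 of the αβ receptor constant chain Trac. The first run gave sums for the DN2 (583 cells), DN3 (743), DN4 (940) and Trdc (788) gates. The second and the third run gave these and the progenitor (82 and 89 cells) and Trac (1761 and 874) gates, with 1815 and 1681 cells in DN2, 742 and 1273 in DN3, 125 and 104 in DN4 and 915 and 962 in Trdc. No sum was made where fewer than 50 cells were left. Between 25.9% and 43.8% of the cells of a run met no gate.

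The gates were checked against markers that did not cut them. Hhex, a progenitor factor, was at 199 and 152 CPM in the progenitor gate against 0.504 to 58.5 in the other gates. Rag1, which cuts receptor genes, was at 129, 98.5 and 339 CPM in the DN3 gate and at 31.5, 11.3 and 29.9 in the DN2 gate. The B cell gene Cd79a was at 2.81 CPM or less in the DN2, DN3 and Trdc gates of every run. Some gates did not match the name of a sort or a label. The second run was sorted for DN1 and DN2 cells that were TCRγδ-, and 915 of its cells met the Trdc gate, while others met the DN3 and DN4 gates. The sort read surface protein and the gates read RNA, so that such cells need not lie outside the sort. In the first run, 66.9% of Trdc gate cells had cycling genes, and the γδ factor Sox13 was at 30.1 CPM there against 84.6 in the second run. Id3, another γδ marker, went the other way, at 236 against 194 CPM. The CD8α gene Cd8a was at 42.8 CPM in the Trdc gate of the first run and 2.58 in that of the second. Cells with at least 5 UMIs of Trdc were kept out of the DN4 gate, so that the Trdc gate can hold cells with Ptcra or Cd8b1. The Trac gate came through a sort against TCRβ and NK1.1 and carried Nkg7, a protein of cytotoxic granules, at 1463 and 912 CPM in the second and the third run. In the progenitor gate Nkg7 was at 410 and 470 CPM. By share it was in 80.2% of Trac and 87.8% of progenitor gate cells of the second run, so that its presence alone does not set the Trac gate apart.

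The members were lower in the first run than in the later runs in each of the 4 gates that the 3 runs share, except that Atf3 also had no UMI in the DN4 gate of the second run. Summed over the members, the level over all cells was 260.1 CPM for the first run, 2237 for the second and 1925 for the third. By gate the sum ran from 184 to 376 CPM in the first run, from 1435 to 3518 in the second and from 1417 to 4651 in the third, so that the first run did not overlap the others. Atf3 had 0 UMIs in all 5516 cells of the first run, which at 3 UMIs allows a level of up to 0.0754 CPM.

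**Figure D1:**
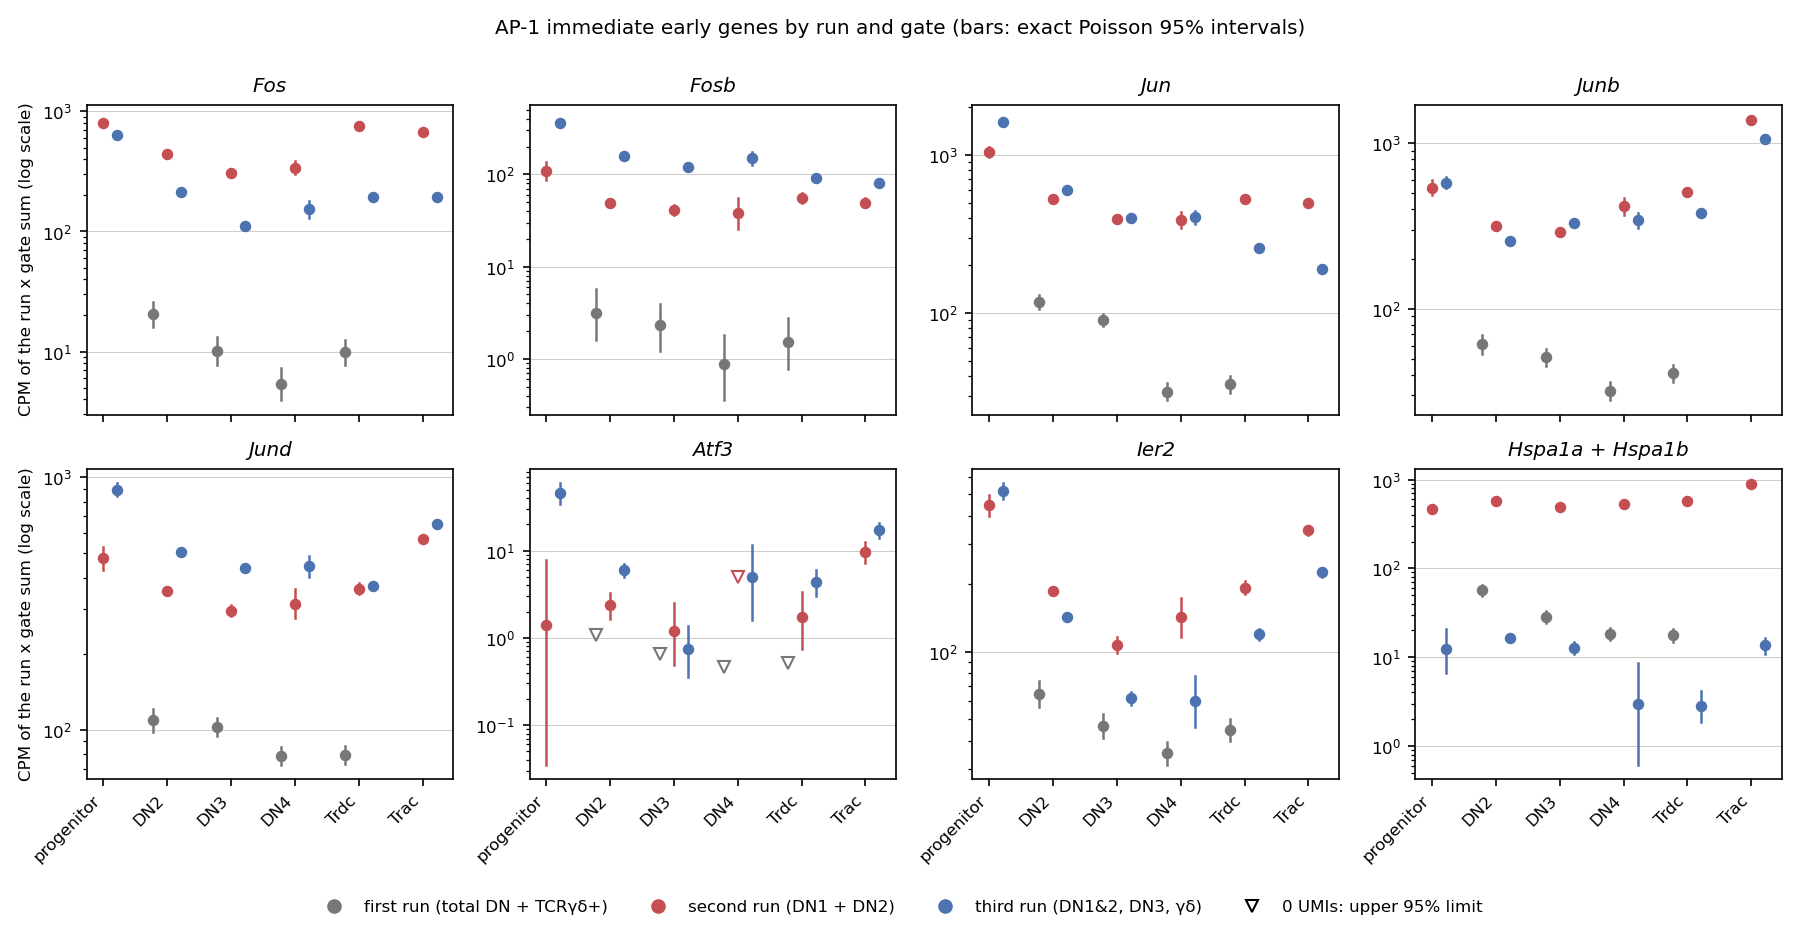
Level of each member and of Hspa1a and Hspa1b together, in CPM on a log axis, for each run (color) and gate, where points are sums over the cells of a gate and bars are exact Poisson 95% intervals. Open triangles are upper 95% limits where no UMI was counted. First-run points lie lowest for the 6 members other than Atf3, whereas for the Hspa1a and Hspa1b pair the third run lies lowest.

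The fos genes showed the widest gap between runs. In the DN2 gate Fos was at 20.5 CPM in the first run (interval 16.03 to 25.9), 439.6 in the second (429 to 450.3) and 214 in the third (208 to 219.9), so that the intervals did not overlap. The second run was thus 21.4-fold and the third 10.4-fold above the first. Only 7 of the 5608 genes compared had a larger ratio of second to first run than Fos. For the third run against the first, 64 of 6255 genes had a larger ratio than Fos. Over the members compared, that number ranged from 14 for Fosb to 816 for Ier2. Fosb followed another order, at 3.18, 49.2 and 158 CPM by run number, and the third run was 49.8-fold above the first. The second run was hence 2.06-fold above the third for Fos but 0.310 of the third for Fosb.

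The Jun genes were less far apart. Jun in this gate was at 117 CPM in the first run, while it was at 529 and 598 CPM in the later ones, which are 4.52-fold and 5.11-fold above the first. Junb was at 61.0, 315 and 257 CPM, and Jund at 109, 355 and 503 CPM in the same order. For Jund, the ratio to the first run was 3.26-fold in the second run and 4.62-fold in the third. Ier2, which encodes a short-lived nuclear protein, was at 65.0, 186 and 143 CPM and had the smallest ratios, 2.86-fold and 2.19-fold. Atf3 was at 2.38 CPM in the second run and 5.92 in the third. With 1 library per sort these ratios compare libraries, and they were not tested.

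In the DN2 gate, genes at least 4-fold higher in the second run than in the first were 0.464% of those compared, and 4 of the 6 members compared were among them (Fos, Fosb, Jun and Junb). In the third run against the first 3.18% of genes were at least 4-fold higher, with 5 of 6 members, all but Ier2. Of other immediate early genes, 6 of 21 compared were 4-fold higher in the second run and 11 of 24 in the third. Second-run genes at least 4-fold above the third were 0.674% of those compared, with none of the 6 members and none of 25 other immediate early genes. Comparisons that share the first run are not independent of each other.

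The inducible chaperones Hspa1a and Hspa1b, which refold damaged proteins and mark heat shock and other stress, did not follow the same order as the members. Together they were at 17.6 to 56.9 CPM over the gates of the first run, 466 to 894 in the second and 2.84 to 16.6 in the third. The third run was therefore high for the 7 members and lowest for this pair, and the second was high for both. The 2 chaperone genes are near-identical copies, and how reads that match both were counted or lost was not examined. Hspa1a and Hspa1b had 967 and 157 UMIs in the first run, 30230 and 2216 in the second and 536 each in the third. The third run also lists 32285 genes, where the others list 28692. What this difference of annotation adds to the level of the pair was not tested. Over the whole list of 18 heat shock and stress genes the level was 7693, 6883 and 7387 CPM in the first, the second and the third run, and 2 of 12 compared, Hspa1a and Hspa1b, were at least 4-fold higher in the second run than in the first. The part of handling in the level of the members was not tested.

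**Figure D2:**
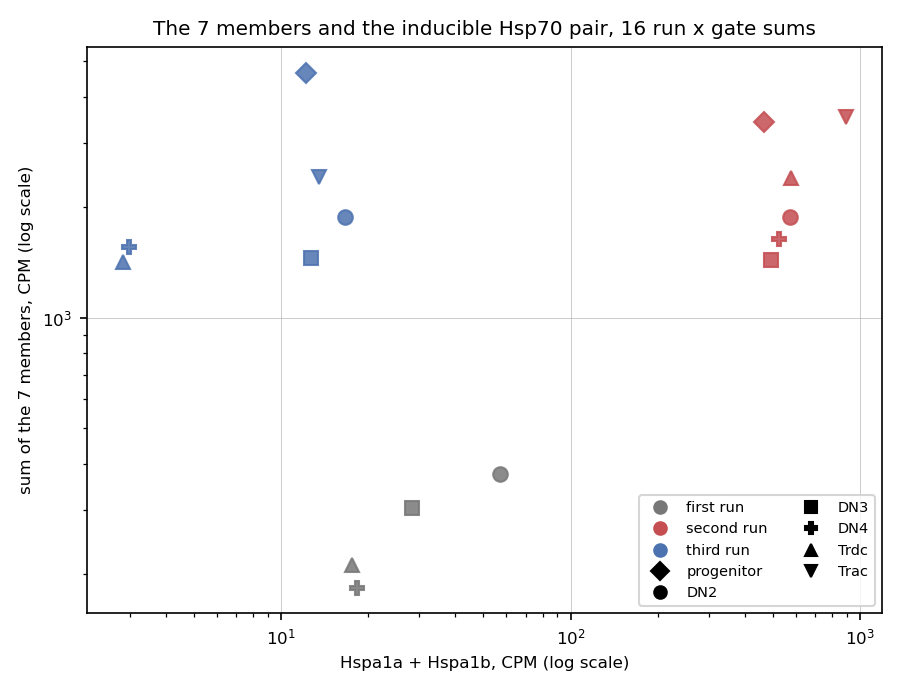
Sum of the 7 members against the sum of Hspa1a and Hspa1b, both in CPM on log axes, with 1 point per run and gate. The first run lies lowest for the members and between the other runs for the pair. The second lies high on both axes, and the third is at 1417 CPM or more for the members and at 16.6 CPM or less for the pair.

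Jun, Junb and Fosb were found in a larger share of DN2 gate cells with a Fos UMI than without in both later runs. The counting intervals did not overlap. For Ier2 the difference varied between gates and runs. Cells were thinned to 2000 UMIs for this, and shallower cells were left out. In the DN2 gate of the second run Jun was found in 64.7% of 852 cells with Fos (exact Clopper-Pearson interval 61.4 to 67.9) and in 47.8% (44.6 to 51.0) of the cells without it. In the third run these shares were 70.6% of 452 cells and 47.9%. Fosb was found in 12.6% of Fos cells and 4.47% of the others in the second run, and in 35.4% and 12.8% in the third. Ier2 was found in 31.8% (28.7 to 35.1) and 26.3% (23.5 to 29.2) in the DN2 gate of the second run, where the intervals overlapped. In the Trac gate of that run it was found in 47.2% and 47.9%. In the DN2 gate of the third run it was found in 30.1% (25.9 to 34.5) and 18.7% (16.5 to 21.0), which did not overlap. A UMI of Hspa1a or Hspa1b was found in 45.3% of Fos cells and 34.1% of the others in the second run, but in 3.76% and 1.22% in the third. Cells of 1 library are not replicates, so that the intervals cover counting error alone. All cell types here can transcribe these genes, so that no share could be taken as the background from free RNA.

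The order of the gates within a run differed between members. In the second and the third run the progenitor gate was highest for Fos, Fosb, Jun and Ier2, and the Trac gate was highest for Junb. For Fos in the second run, the progenitor gate at 801 CPM (737 to 869) overlapped the Trdc gate at 757 (732 to 782). The DN3 gate was lowest for Fos in both runs, at 309 CPM (295 to 324) in the second and 112 (107 to 118) in the third. In the second run the neighboring DN4 gate, at 340.3 CPM (299 to 385), did not differ from it beyond the counting intervals, and in the third run, at 153 CPM (129.7 to 179), it did. In the third run the Trac gate was lowest for Jun, at 190.5 CPM (180.3 to 201), and for Fosb, at 80.0 CPM (73.5 to 87.0), which overlapped the Trdc gate at 91.3 (85.1 to 97.9). In the first run, where the highest gate was DN2 and the lowest DN4 for 6 members, Fos was at 20.5 and 5.41 CPM in these gates and Jun at 117 and 31.7 CPM. The share of cells with a UMI, at 2000 UMIs a cell, also differed: Fos was found in 46.9% of DN2 and 36.3% of DN3 gate cells of the second run, and Jun in 24.1% of Trac and 54.0% of DN2 gate cells of the third. B gate cells, of which the third run had 440, held Jund at 1163 CPM, above every other gate of that run.

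Comparisons between gates were tested with edgeR's quasi-likelihood test, with the run as a term. The fit held 21 sums: the 16 described above, the ungated cells of each run, and, in the third run, the B gate and 70 cells that met both the Trdc and the Trac gate, so that these also enter the estimate of the spread. Adjusted p-values are Benjamini-Hochberg values over all genes tested, and a gene was called under 0.05. As each sort was made once, they measure only the spread between 2 or 3 sums of a gate. Genes that cut the gates were not tested.

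The first comparison asks how the genes differ as progenitors take up CD25. In the DN2 gate 6 of the 7 members were lower than in the progenitor gate, while 5.21% of all genes tested were called lower and 4.22% higher. The median change over the members was -1.09 on the log2 scale, beside 0.07 over all genes. Of 33 other immediate early genes 17 were lower and 1 was higher (median -1.14), with Egr3 (-3.67), Rhob (-2.98), Zfp36 (-2.71) and Ier3 (-2.63) the largest log2 changes. Zfp36 encodes a protein that marks short-lived RNAs for decay. Of 20 AP-1 and CREB family genes 4 were lower and 1 was higher, and of 18 heat shock and stress genes none was called. Of 25 kinases and factors upstream of AP-1 3 were lower and 2 higher, with Prkca (2.12) and Elk3 (-0.91) among them. Of 12 natural killer receptor markers none was called (median -1.02), and of 11 type 17 markers 1 was lower, Il1r1 (-3.43), and their part in the result was not tested.

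Ier2 had the smallest adjusted p and fell from 448 CPM in the progenitor gate to 186 in the DN2 gate in the second run and from 519 to 143 in the third. Its log2 change was -1.59 (SE 0.20, adjusted p = 4.92e-05). Fosb went from 109.9 to 49.2 CPM and from 364 to 158 (log2 change -1.14, SE 0.24, adjusted p = 0.00548). Fos went from 801 to 439.6 CPM and from 633 to 214 (-1.08, SE 0.28, adjusted p = 0.0216). In both runs the 2 gates did not overlap within their counting intervals for these 3 genes. Jund went from 477 to 355 CPM and from 892 to 503 (-0.60, SE 0.14, adjusted p = 0.0102), and Junb from 541 to 315 CPM and from 577 to 257 (-0.73, SE 0.22, adjusted p = 0.0443).

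Jun was lower in the DN2 gate in both runs, at 529 against 1043 CPM and 598 against 1622, but with an adjusted p of 0.0566 it was not called (log2 change -1.09, SE 0.35). Atf3 was called (-2.49, SE 0.52, adjusted p = 0.00803), and the call rests on the third run. There it went from 45.4 CPM in the progenitor gate to 5.92 in the DN2 gate, whereas in the second run it was at 1.39 CPM, which is 1 UMI, and 2.38 CPM. Without the third run its log2 change was 0.71 and it was not called. The number of members called was 1 without the third run, 3 without the second and 7 without the first.

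**Figure D3:**
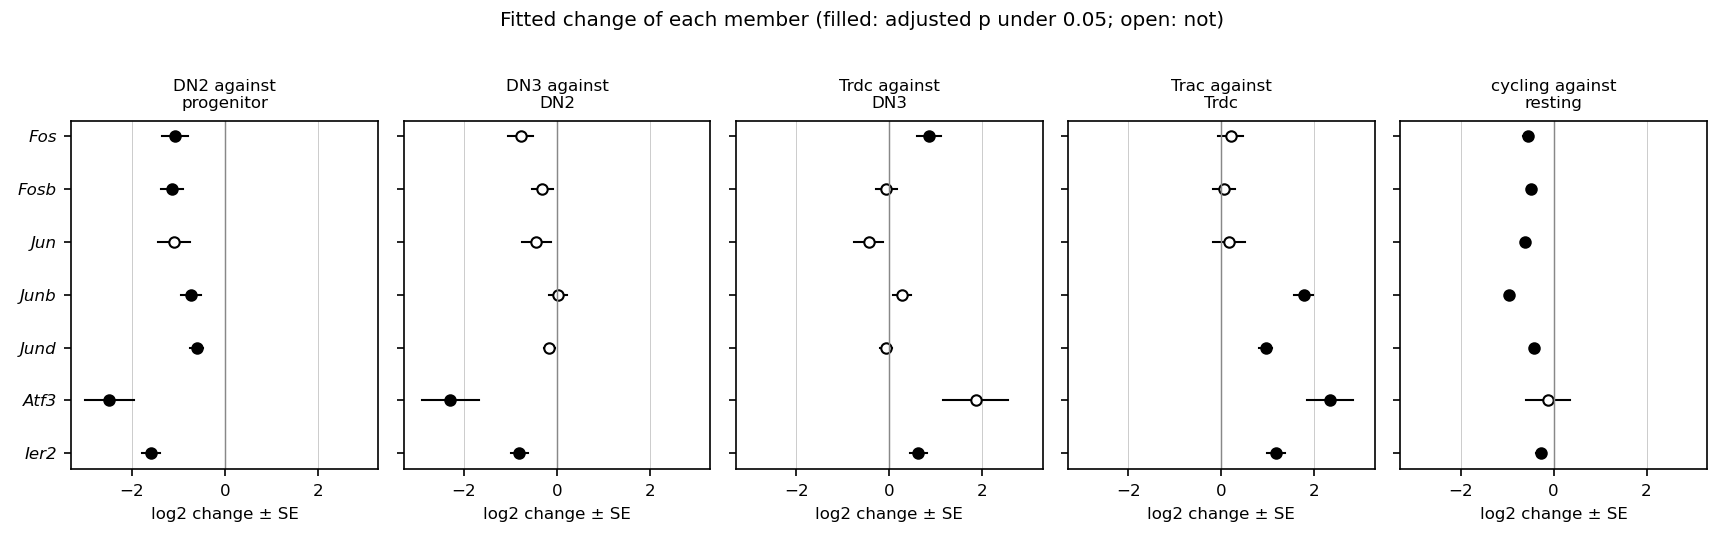
Log2 change of each member in 5 of the comparisons, as fitted by edgeR, with bars of 1 SE, where filled points have an adjusted p under 0.05. Members lie left of 0 in the DN2 against progenitor panel and in the cycling against resting panel, and in the Trac against Trdc panel Junb, Jund, Atf3 and Ier2 lie to the right.

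The step from DN2 to DN3, by which cells have committed to the T lineage and rearrange their receptor genes, had smaller changes. Ier2 and Atf3 were lower in the DN3 gate, which is 2 of 7 members, while 2.58% of all genes were called lower and 2.09% higher. Ier2 was at 46.6 CPM in the DN3 gate and 65.0 in the DN2 gate of the first run, 107 and 186 in the second, and 62.0 and 143 in the third (log2 change -0.81, SE 0.18, adjusted p = 0.0114). Atf3 was at 1.21 and 2.38 CPM in the second run and 0.741 and 5.92 in the third, with 0 UMIs in both gates of the first (-2.30, SE 0.61, adjusted p = 0.0484). Its second-run levels are 7 and 36 UMIs, and the counting interval of their log2 ratio, -2.39 to 0.21, included 0. Only in the third run did the gates thus differ beyond counting error. Fos was lower in the DN3 gate in 3 of 3 runs, at 10.1 against 20.5, 309 against 439.6 and 112 against 214 CPM, but was not called (-0.78, SE 0.27, adjusted p = 0.118). Neither Jun (-0.44, SE 0.31) nor Fosb (-0.32, SE 0.22), Jund (-0.16, SE 0.12) and Junb (0.03, SE 0.19) passed the test. The members' median was -0.44, against 0.01 over all genes. Of 33 other immediate early genes 8 were lower and 1 was higher (median -0.31), with Rhob (-2.68), Ier3 (-1.59), Klf2 (-1.48) and Nr4a1 (-1.26) the largest. Of the AP-1 and CREB family 1 gene of 20, Bach2 (-0.88), was lower, and of the heat shock genes and the upstream kinases and factors none was called. Without the second run 0 members were called, and without the third 0 as well.

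The DN4 gate was unlike between runs. Cd8a, which encodes CD8α, was at 63.0 CPM in it in the first run but had 0 UMIs in the second and was at 14.9 CPM in the third. Rag1 was at 159.9 CPM in the DN4 gate of the second run and 98.5 in the DN3 gate, and at 317 and 339 in the third. No member was called between the DN4 and DN3 gates, where 0.0706% of genes were called higher and 0.0941% lower. None had an unadjusted p under 0.05 in edgeR, and DESeq2 called none. In the first run each of the 6 members with UMIs was lower in the DN4 gate, with Jun at 31.7 against 90.2 CPM and Fos at 5.41 against 10.1. In the second and the third run Jun was at 387 against 391 and 404 against 397 CPM. The share of cycling cells was 70.4% in the DN4 gate of the first run and 20% and 27.9% in those of the other runs, and its part in these values was not tested. Of the other immediate early genes, the AP-1 and CREB family, the heat shock genes and the upstream kinases none was called either, but Ccr6 (4.25), Il1r1 (4.16) and Il18r1 (2.73), markers of type 17 lymphocytes, were higher in the DN4 gate.

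The Trdc gate was set against the DN3 gate, near the stage at which the standard model has γδ cells branch. The study that made these libraries calls that model likely incomplete and proposes that some γδ cells develop directly from DN1 cells. Fos and Ier2 were higher in the Trdc gate, 2 of 7 members, while 10.7% of all genes were called higher and 5.85% lower. Fos was at 9.93 CPM in the Trdc gate and 10.1 in the DN3 gate of the first run, 757 and 309 in the second, and 195 and 112 in the third (log2 change 0.86, SE 0.26, adjusted p = 0.0288). Ier2 was at 44.8 and 46.6 CPM, 192 and 107, and 119 and 62.0 in the same order (0.62, SE 0.18, adjusted p = 0.0231). Both were thus higher in the second and the third run, and in the first their counting intervals overlapped. Atf3 had an adjusted p of 0.0915 (1.86, SE 0.70), with 1.72 against 1.21 CPM in the second run and 4.31 against 0.741 in the third. Jun had an adjusted p of 0.396 (-0.44, SE 0.31), and its direction differed between the runs, with 35.3 against 90.2 CPM in the first, 528 against 391 in the second and 257 against 397 in the third. Between 0 and 4 members were called when 1 run was left out, with 4 without the first run, 0 without the second and 0 without the third. The second run, on which both calls rest in part, was the one sorted as TCRγδ- by surface protein.

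Of the other immediate early genes 19 of 33 were higher in the Trdc gate and 1 was lower (median 0.68, against 0.28 over the members and 0.02 over all genes). The largest were Egr3 (3.28), Nr4a1 (2.78), Klf2 (2.63) and Rhob (2.04), and Egr3 and Nr4a1 are known to answer antigen receptor signals. All 11 markers of type 17 lymphocytes were higher, and their summed level was 156 to 1010 CPM in the Trdc gate against 48.2 to 72.9 in the DN3 gate. Of 12 natural killer receptor markers 3 were higher, Zbtb16, Il2rb and Gzma, with summed levels of 1152 to 2470 against 465 to 687 CPM. Most of the Trdc gate sum was Gzma, which the study ties to the interleukin 17 phenotype. Gzma was at 1032, 821 and 2009 CPM there by run number, against 555, 211 and 250 in the DN3 gate. Nkg7, of the same list, was lower in the first run, at 80.3 against 96.1 CPM. It was higher in the second, at 326 against 209, and in the third, at 314 against 137. Of the 20 AP-1 and CREB family genes 5 were higher and 1 was lower, with Maf (4.17), Batf (1.77), Atf6 (1.41) and Crem (0.96) first. Of 25 kinases and factors upstream 5 were higher, among them Prkcq (1.47), which encodes a protein kinase C of the antigen receptor pathway. The heat shock list gave 2 higher, Hspa5 (0.78) and Dnajb1 (0.61), of 18.

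The Trac gate differed from the Trdc gate in 4 of 7 members, all higher, while 17.8% of genes were called higher and 20.7% lower. Junb had the largest gap between these gates by CPM, at 1379 against 509 in the second run and 1068 against 379.6 in the third (log2 change 1.77, SE 0.21, adjusted p = 4.51e-06). Jund was at 569 against 361 and 653 against 370.3 CPM (0.95, SE 0.14, adjusted p = 3.63e-05). Ier2 was at 346 against 192 and 225 against 119 CPM (1.17, SE 0.20, adjusted p = 0.000147). Atf3 was at 9.55 against 1.72 and 17.1 against 4.31 CPM (2.33, SE 0.49, adjusted p = 0.00206). For these 4 members the 2 gates did not overlap within their counting intervals in either run. The first run had 14 Trac gate cells and gave no sum.

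The remaining members did not pass the test. Fos was at 672 CPM in the Trac gate against 757 in the Trdc gate in the second run and at 193 against 195 in the third (0.20, SE 0.27, adjusted p = 0.586). Fosb (0.05, SE 0.24) and Jun (0.16, SE 0.34) were also lower by CPM in both runs, although the fitted values lie above 0. The scaling differs between these values: by library totals the median gene was at -0.26 in the second run and -0.17 in the third, and in the edgeR fit it was at -0.06. Fos at -0.17 and Jun at -0.10 in the second run were above that median, while Jun at -0.43 in the third was below it. Jun's fitted value was -0.16 without the second run and 0.59 without the third, and what sets its sign was not tested.

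Markers of natural killer receptor lymphocytes moved with this comparison. Of the 12, 10 were higher in the Trac gate and 1 was lower, and their summed level was 3431 to 5764 CPM against 1385 to 2470 in the Trdc gate of the same runs. Tbx21 (5.56), Klrb1c (5.37), Ly6c2 (5.25) and Klrk1 (4.97) were the largest log2 changes. Ncr1, a receptor gene that natural killer cells express, was at 0.341 and 1.46 CPM in the Trac gate. Of the type 17 markers 6 were higher and 2 lower, Etv5 (-3.85) and Sox13 (-3.61). The part of these cells in the Junb and Jund levels was not tested. Of 33 other immediate early genes 15 were higher and 3 lower (median 0.61, against 0.95 over the members), with Rhob (2.39), Dusp1 (1.83), Ier5 (1.80) and Cebpb (1.79) the largest. Among AP-1 and CREB genes Fosl2 (1.90) and Maff (1.34) were higher and Jdp2 (-1.82) and Bach1 (-1.70) lower, with 3 higher and 3 lower of 20. Upstream kinases and factors gave 6 higher and 2 lower of 25, and heat shock genes 3 and 3 of 18, with Hspa1b (1.69) and Hspa1a among the higher.

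Cycling cells had a lower share of these transcripts than resting cells of the same gate. Cells with at least 3 UMIs over 7 mitosis genes (Mki67, Top2a, Birc5, Cdk1, Ube2c, Cenpf and Ccnb1) were called cycling, and those with none resting, in the DN2 and DN3 gates. Of the 7 members 6 were lower in cycling cells, while 28.5% of all genes were called lower and 22.8% higher. The members' median log2 change was -0.48, against -0.08 over all genes.

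Junb had the smallest adjusted p. In the DN2 gate it was at 49.1 CPM in cycling against 79.0 in resting cells of the first run, 233 against 453 in the second and 203 against 413 in the third. In the DN3 gate it was at 39.9 against 66.7, 205 against 474 and 195 against 435 CPM. It was thus lower in cycling cells in 6 of 6 pairs, with a log2 change of -0.96 (SE 0.07, adjusted p = 2.63e-10). Jun was also lower in all 6 pairs (-0.62, SE 0.09, adjusted p = 6.41e-06), from 98.3 against 159 CPM in the DN2 gate of the first run to 289 against 489.6 in the DN3 gate of the third. The same held for Jund (-0.42, SE 0.08, adjusted p = 0.000108), at 310 against 451 CPM in the DN2 gate of the second run. Fos was lower in 5 of 6 pairs (-0.55, SE 0.11, adjusted p = 0.000285) and Fosb in 5 of 6 (-0.48, SE 0.10, adjusted p = 0.000244), both with the DN2 gate of the first run as the exception. Ier2 was lower in 5 of 6 pairs (-0.27, SE 0.11, adjusted p = 0.0388), with the DN3 gate of the third run as the exception, and Atf3 was not called (-0.12, SE 0.48).

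**Figure D4:**
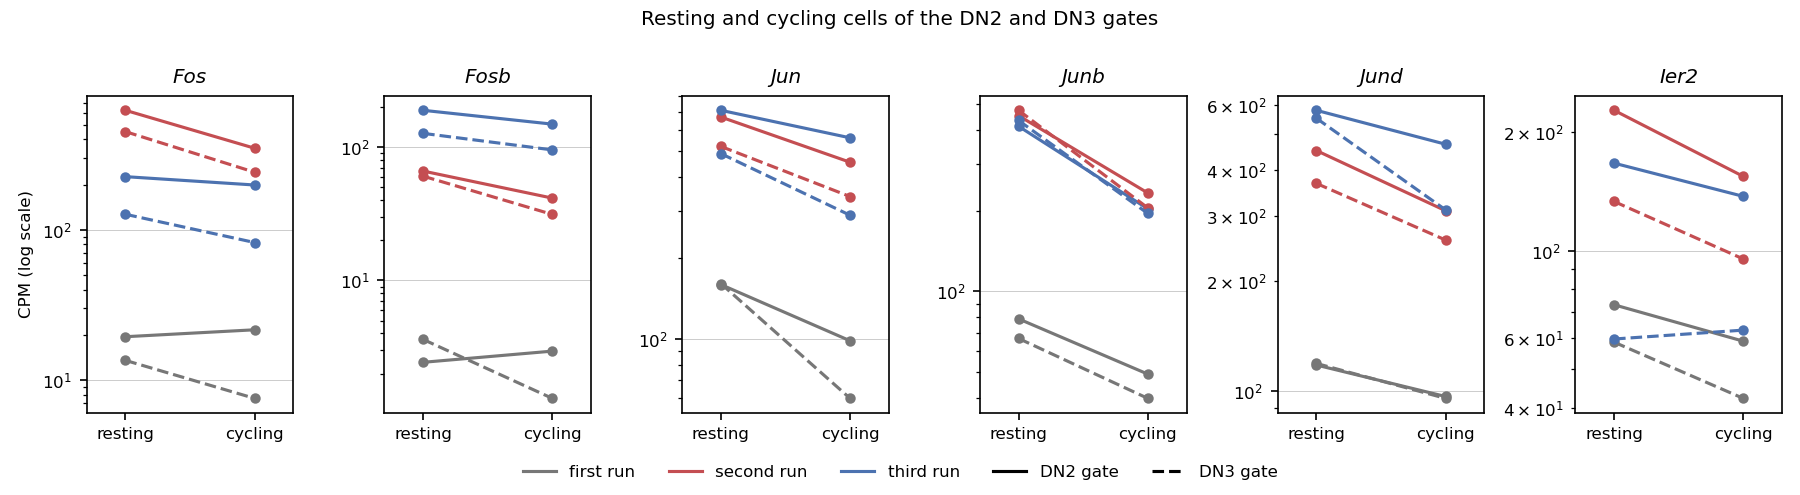
Level in cycling against resting cells for 6 members (Atf3 is not drawn), in CPM on a log axis, with 1 line per run and gate (DN2 and DN3). Lines for Jun, Junb and Jund fall from resting to cycling in all 6 pairs, whereas those for Fos, Fosb and Ier2 fall in 5.

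The lower share did not mean fewer molecules per cell. Cycling cells were deeper, with a median of 7976.5 to 17482 UMIs against 3292 to 8866 in resting cells, and had lower mitochondrial shares, at 2.45% to 3.04% against 3.38% to 3.88%. In 33 of 36 pairs of run, gate and member (Atf3 left out), the mean number of UMIs per cell was higher in cycling cells. Greater depth raises such means for genes in general, so that this count is no trait of the members. The same share over all genes was not computed. For Jun in the third run the mean was 9.61 UMIs per cycling cell and 6.57 per resting cell of the DN2 gate, and for Junb it was 3.49 and 3.83. Of 30 other immediate early genes tested, 23 were lower in cycling cells and 0 higher (median -0.55), led by Btg1 (-1.28), Socs3 (-1.23), Btg2 (-0.95) and Tnfaip3 (-0.92). Btg1 and Btg2 encode proteins that hold back division. Heat shock genes went the other way, with 8 of 16 higher and 3 lower, Hsp90aa1 (0.98) and Hspd1 (0.89) among the former. Of 18 AP-1 and CREB genes 8 were lower and 1 was higher, and of 25 upstream kinases and factors 8 were lower and 2 higher. Natural killer receptor markers were lower for 8 of 9 tested, and type 17 markers for 6 of 8. The part of depth and of these cells in the levels was not tested. Without the second run 3 members were called, and with gates read on thinned cells 3.

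Over the same 21 sums, ungated cells and the B gate included, with each run centered on its own mean of log2(CPM + 1), the genes closest to the mean of the 7 members were Kctd12 (Pearson r = 0.907), Klf6 (0.901), Egr1 (0.899), Dusp2 (0.894) and Icam1 (0.891), among 5758 genes. Closest to Fos alone were Egr1 (0.912), Klf6 (0.889), Nfkbiz (0.859), Smad7 (0.848) and Tgfb1 (0.842). Egr1, Klf6, Dusp2 and Nfkbiz are immediate early genes as well. The other members each had a closest gene of their own or shared with 1 member. It was Spi1, a progenitor marker, for Jun (0.872) and Fosb (0.904), Kctd12 for Jund (0.941) and AW112010 for Junb (0.942). For Ier2 it was Dusp2 (0.966) and for Atf3 Zfp622 (0.869). Among the members, Jun and Fosb were closest, at 0.949, and Ier2 and Fos followed at 0.839. Junb stood apart from both of the former, at 0.0445 with Jun and 0.100 with Fosb. The points share libraries and depth, so that these values are a description.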

How the data were processed

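Each sample was a 10x Genomics 3′ library. The authors aligned and counted the reads with Cell Ranger on mm10, and the deposited values are UMI counts per gene and cell. Version 4.0.0 is named in the header of the third run, while the study's methods name a pair of versions, reagent kits and sequencers without assigning them to runs. The submitters' processing notes also name R 3.6.3 and Seurat 2.3.

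From these counts, only cells of 500 to 5000 genes entered, if mitochondrial counts made up no more than 7%. No doublets were removed in the main analysis, and leaving out the 8% of cells with the highest Scrublet scores was an alternative. Cells were gated on raw UMIs and summed per run and gate, with at least 50 cells a sum. Sums were fitted in edgeR 4.0.16 (R 4.3.3) by quasi-likelihood with gate and run as terms, TMM scaling and filterByExpr, which left 12754 genes between gates and 10244 in cycling against resting cells. P-values were adjusted by Benjamini-Hochberg. DESeq2 1.42.0 was an alternative. Intervals are exact Poisson for CPM and Clopper-Pearson for shares (scipy 1.17.1), and cover counting error only. The run is the block of the fit, since the labels carry no replicate numbers and same-run gates come from 1 pool. Up to 4 genes per list with the largest called change are named. The scripts were tested on simulated data.

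The members and the gene lists were chosen with earlier results of these data known.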

Additional observations from a re-analysis of the deposited data

Results flagged for a closer look

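Some members had opposite directions in different runs, with counting intervals that exclude 0. Each run is 1 library, and the difference between runs was not tested. Values are log2 ratios of CPM within a run. Between the DN3 and DN2 gates Junb was at 0.36 in the third run and -0.12 in the second.

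Between the DN4 and DN3 gates Fos was at 0.45 in the third run and -0.91 in the first. Junb was at 0.52 in the second run and -0.69 in the first, and Ier2 at 0.41 in the second and -0.40 in the first.

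Between the Trdc and DN3 gates Fosb was at 0.43 in the second run and -0.40 in the third. Jun was at 0.43 in the second run, -1.36 in the first and -0.63 in the third. Junb was at 0.81 in the second run, 0.21 in the third and -0.33 in the first. Jund was at 0.29 in the second run, -0.37 in the first and -0.23 in the third.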

How the results depend on the processing

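Of the 20 changes called over the members and comparisons, 20 were still called with no filter on low counts and 20 with stricter gates, 19 with a mitochondrial limit of 5%, 18 with RLE size factors, 18 without the highest Scrublet scores and 16 with DESeq2. Gates on cells thinned to 2000 UMIs gave values for 14 of them, of which 10 were still called, and none for the DN2 against progenitor comparison. With no replicate block, which here is the run, 0 of the 20 were called: the members called went from 6 to 0 in DN2 against progenitor, 2 to 0 in DN3 against DN2, 2 to 0 in Trdc against DN3, 4 to 0 in Trac against Trdc and 6 to 0 in cycling against resting. Over all genes the fit without the block called 124, 0, 0, 84, 965 and 1532 genes in the order of the report, against 1202, 595, 21, 2109, 4909 and 5253.

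Leaving out 1 run gave 1 to 7 members called in DN2 against progenitor, 0 to 3 in DN3 against DN2, 0 to 4 in Trdc against DN3 and 3 to 6 in cycling against resting. Where 1 sum of a gate was left, it was assumed to vary like the others. Over all genes 304, 94, 1, 694, 1573 and 4491 were called without the second run and 160, 65, 0, 177, 3462 and 3598 without the third. Without the first run 1763, 768, 22, 3069, 4811 and 4549 were called. Between the DN4 and DN3 gates the count ranged from 0 to 100, with 100 under no filter, 40 with DESeq2, 11 with RLE, 4 with thinned gates and 3 with the mitochondrial limit of 5%. Thinned gates called 1566 genes in cycling against resting cells.

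In DN3 against DN2 1 member was called with DESeq2, with RLE size factors, with thinned gates, with the mitochondrial limit of 5% and without the highest Scrublet scores. In Trdc against DN3 DESeq2 called 1, and in cycling against resting thinned gates called 3. The sum of the members was 2222 CPM in the second run at the 5% limit and 1898 in the third without the highest Scrublet scores. Directions turned for changes that were not called: Junb in DN3 against DN2 was at -0.0035 with stricter gates and Jund at 0.00065 with thinned gates. In Trac against Trdc thinned gates gave -0.23 for Fos and -0.028 for Fosb, and leaving out the highest Scrublet scores gave -0.032 for Fosb. Leaving out 1 run gave log2 changes of -0.15 to 0.14 for Junb in DN3 against DN2, -0.41 to 0.26 for Fosb and -0.25 to 0.010 for Jund in Trdc against DN3, and -0.027 to 0.23 for Fosb and -0.16 to 0.59 for Jun in Trac against Trdc. The called Atf3 change in DN2 against progenitor ranged from -2.97 to 0.71. The cause of these shifts was not tested.

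Each sort was made once, so that run, pool, sort and chemistry cannot be told apart. Atf3 was near the limit of detection in most gates.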

Other observations

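Within the Trdc gate Fos was higher in cells with at least 3 UMIs of Sox13, Blk and Etv5 together, genes of γδ cells that make interleukin 17. It was at 1329 CPM in 277 such cells of the second run against 475 in 421 cells with none, and at 248 in 537 cells against 118 in 252 cells of the third. In the first run it was at 13.5 in 120 cells against 8.69 in 517 cells, where the counting intervals overlapped. Fosb, Jun and Junb were also higher by CPM in every run. Their counting intervals overlapped in the first run, and those of Fosb in the third as well. Ier2 was not higher in the later runs, at 184 against 188 CPM and 110 against 130, nor was Jund in the third, at 355 against 394. Such cells were shallower, with medians of 4611.5 against 8917 UMIs in the first run, 3031 against 5082 in the second and 6923 against 8213 in the third. Within the Trac gate Junb was at 1560 CPM in 1375 cells with at least 5 UMIs of natural killer receptor genes and 906 in 291 cells with at most 1 in the second run, and at 1201 (660 cells) and 857 (110 cells) in the third. Jund followed the same direction, at 668 against 297 and 773 against 385 CPM, while Fos had the opposite one, at 653 against 747 and 136 against 292 CPM. These parts were set after the levels were seen and were not tested.

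In the DN2 gate the cells were ranked by mitochondrial share and cut into 3 equal parts. Fos was higher by CPM in the highest part than in the lowest, at 567 against 361 in the second run and 232 against 188 in the third. In the first run it was at 21.0 against 15.0 CPM, where the counting intervals overlapped. By UMIs the highest part had less Fos, at 2068 against 2299 in 605 cells each of the second run. In the third run it had 1415 in 560 cells against 1767 in 561. Junb was also higher by CPM in the highest part of this gate, at 435 against 244 in the second run and 323 against 196 in the third. In the Trac gate Fos was again higher in the highest part, at 700 against 615 CPM in the second run and 269 against 129 in the third. Junb was lower there, at 1259 against 1514 CPM and 1024 against 1172. Resting cells of the DN2 gate had higher mitochondrial shares than cycling ones, and the part of cycling and of depth in these values was not tested.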
